A study of Homo sapiens with 7 samples.

Results

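The day 14 alpha-MHC+ cells were compared with the NKX2-5+ cells of day 7 in the cardiac differentiation of human embryonic stem cells (hESC), which takes 2 of the 7 libraries of the series. The members are these 2 libraries, chosen by their sort labels and not by a measured value. The cells are of the H3 hESC line in which eGFP reports on NKX2-5, which encodes a homeobox factor of the forming heart, and mCherry on alpha-MHC, the product of MYH6. Each group used here is RNA of cells sorted by flow cytometry after differentiation toward the cardiac lineage, with 1 library per group. The day 7 group is CD13+/ROR2+/NKX2-5+ and labelled as cardiac progenitors, and the day 14 group is CD13+/ROR2+/NKX2-5+/aMHC+ and labelled as cardiomyocytes. For a check, the day 7 CD13+/ROR2+/NKX2-5- library was read beside them, and values of the day 14 CD13+/ROR2+/NKX2-5+/aMHC- library are given where they help; the labels name no cell type for either. All 4 fractions therefore share the reporters and the CD13 and ROR2 gate, and the labels do not say on which day that gate was set. The data come from 1 line with no repeat of any fraction, so a difference between libraries has no replicate check and no test was possible.

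Heart muscle cells arise from mesoderm through progenitors that switch on NKX2-5 together with the T-box, GATA and HAND factors. These cells assemble sarcomeres from myosin thick filaments and actin thin filaments, couple excitation to contraction through the ryanodine receptor and the calcium pump of the sarcoplasmic reticulum, and leave the cell cycle as they mature. Maturing heart cells also exchange fetal protein isoforms for adult ones and turn from glucose to fatty acids as fuel, a shift that cultured cells are known to make only in part.

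Expression is given as FPKM, fragments scaled by transcript length and library total. Each library was scaled further by its median ratio over 7742 genes that exceed 1 FPKM in every library, and all levels below are in this scaled FPKM. Ratios are log2 of (level + 1) in day 14 aMHC+ over (level + 1) in day 7 NKX2-5+, and folds are plain quotients of levels. A gene was assessed where the higher library had at least 5 scaled FPKM, and was called where the log2 ratio was at least 2 in size, which is 4-fold. Depth is known only as a ratio read from the steps between low values, where the day 14 aMHC+ library had 3.34 times the depth of day 7 NKX2-5+. The same reading gave 0.669 for day 14 aMHC+ against aMHC- and 2.53 for day 14 aMHC- against day 7 NKX2-5+. These do not multiply to 3.34, so the size of that ratio is uncertain. The shallow day 7 NKX2-5+ library listed 7780 genes at 0 and the day 14 aMHC+ library 6385. A value under about 1 scaled FPKM on day 7 can thus rest on few reads, above all for short transcripts.

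Of 5700 genes assessed, 172 were at least 4-fold higher in the day 14 cells (3.02%) and 97 at least 4-fold lower (1.7%). The median ratio of all assessed genes was 0.07. Just inside the size rule stood GOLIM4 (2.002) and RTN4RL1 (-2.01), and just outside it, on the higher side, SPINT2 (1.99). Of the calls, 63.9% were higher, but this split followed the scaling: it was 91.1% with FPKM as deposited, 44.1% with equal sums, 39.5% with the median ratio taken over genes above 20 FPKM and 53.1% with ratios centred by transcript length. These scalings moved the median of all genes by 0.66, -0.39 and -0.46 for the first 3, so list medians are best read against the median of all genes.

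**Figure D1:**
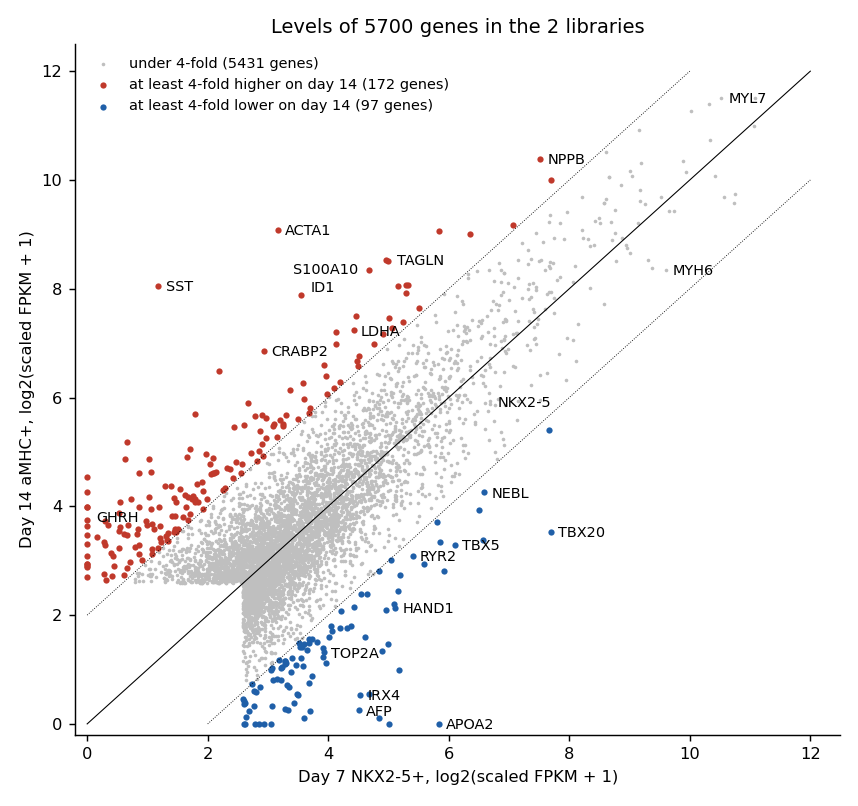
Each point is 1 of 5700 genes, with its log2(scaled FPKM + 1) in the day 7 NKX2-5+ library on the x axis and in the day 14 aMHC+ library on the y axis. Red points are the 172 genes at least 4-fold higher and blue points the 97 at least 4-fold lower on day 14, outside the dotted lines; ACTA1, SST and NPPB lie far above the diagonal and TBX20, AFP and APOA2 far below it.

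The other day 7 library gives a reading in which the shallow one is not the denominator. The shallow library still entered the scaling and the choice of the 172 and 97 genes. FPKM in day 7 NKX2-5- summed to 414781, and to 139379 without small RNA and histone genes. In day 7 NKX2-5+ these sums were 108220 and 98815. Among the 172 higher genes, 44 were also at least 4-fold higher on day 14 than in day 7 NKX2-5-, 69 were 2 to 4-fold higher, 54 lay within 2-fold and 5 were at least 2-fold lower. Of the 97 lower genes, 40 were at least 4-fold lower against that library too, 20 were 2 to 4-fold lower, 31 lay within 2-fold and 6 were at least 2-fold higher. The background against day 7 NKX2-5- was 125 of 5736 genes higher (2.18%) and 140 lower (2.44%), with 47.2% of the calls higher (57.1% with FPKM as deposited, 31.4% with equal sums, 26.9% with scaling over genes above 20 FPKM). Both comparisons share the day 14 library. A gene that passes in 1 of them can reflect the shallow library or a difference between the day 7 fractions, which cannot be told apart here.

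Transcript length moved with day. Genes with a longest coding transcript of up to 1000 bases had a median ratio of 0.85 (n = 279) and those over 8000 bases a median of -0.35 (n = 433). The same gradient appeared against day 7 NKX2-5-, from 0.85 to -0.36, while between the day 14 fractions the medians of all length classes lay between -0.06 and -0.01. Its part in the results was not tested. Length-centred ratios, in which the median of a gene's length class is taken off, are given beside some of the lists. Centred by length, 14 named genes that were called fell short of the size rule and 4 that were not called passed it. Among the 14 were RYR2 (-1.96), NEBL (-1.98), LAMA2 (-1.66) and KDR (-1.87) on the lower side. On the higher side they included P4HA1 (1.86), FBLN1 (1.92), MFAP4 (1.79), LRRN4 (1.93) and IER3 (1.83).

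**Figure D2:**
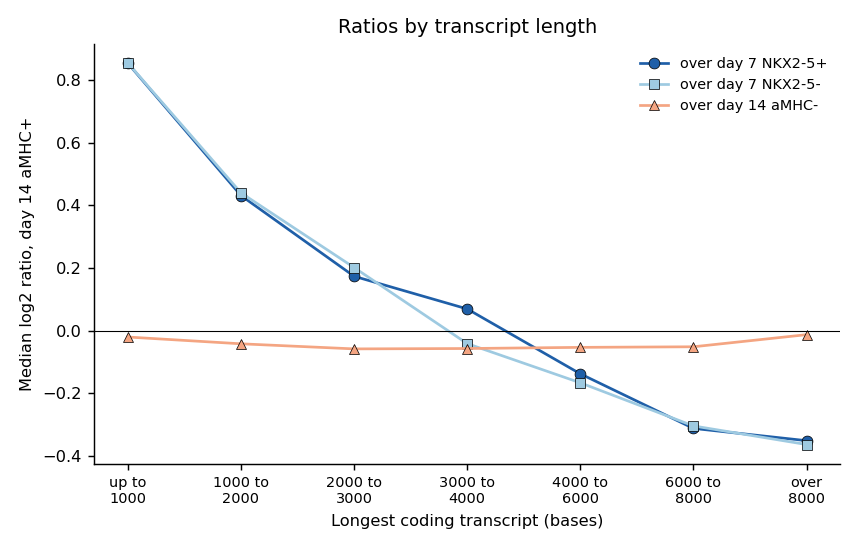
Median log2 ratio of day 14 aMHC+ over 3 other libraries (y axis) in 7 classes of longest coding transcript (x axis, bases). Against both day 7 libraries the medians go down from 0.85 for the shortest class to -0.35 and -0.36 for the longest, and against day 14 aMHC- they stay near 0.

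The genes behind the sort were read in all 4 fractions. NKX2-5 stood at 102 scaled FPKM in day 7 NKX2-5+ and 59.9 in day 14 aMHC+, against 1.27 in day 7 NKX2-5- and 70.1 in day 14 aMHC-. MYH6 stood at 774 in day 7 NKX2-5+ and 325 in day 14 aMHC+, a 2.38-fold lower level in the cells sorted for its reporter, and at 111 in day 14 aMHC-. Reads shared with the paralog MYH7 could have been split either way between the pair. ROR2 was at 5.18 and 3.55 in the pair compared, and ANPEP, which encodes CD13, at 0.211 and 0.0144. All 4 sort and reporter genes were thus lower on day 14 at this scaling, with ROR2 at a log2 ratio of -0.44 that became 0.06 with FPKM as deposited, and none passed the size rule.

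Cardiac muscle markers were abundant on both days. TNNT2, cardiac troponin T, was at 1360 scaled FPKM on day 7 and 1075 on day 14, and the actinin gene ACTN2 at 49.4 and 36.1. The ventricular light chain gene MYL2 was near the floor, at 0.68 and 1.74. Of the 4 markers named for this comparison, ACTA1, NPPB and TAGLN were at least 4-fold higher and TBX20 at least 4-fold lower on day 14. These were named with earlier results of the data known, so their calls are a description.

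ACTA1, the skeletal muscle actin that fetal heart muscle also makes, had the highest ratio of the sarcomere genes. It stood at 7.99 scaled FPKM in day 7 NKX2-5+ and 541 in day 14 aMHC+ (67.8-fold, log2 ratio 5.92), against 4.39 in day 7 NKX2-5- and 230 in day 14 aMHC-. Both day 14 fractions were thus far above both day 7 fractions. Cardiac actin (ACTC1) went the other way, at 1731 on day 7 and 856 on day 14, while smooth muscle actin (ACTA2) was at 663 and 331. The actin genes are close paralogs and reads could have been shared among them. The 150 bases before the start of ACTA1 are shown for the CArG box, the site that serum response factor binds (in capitals; chr1:229434095-229434244, minus strand; RefSeq, GRCh38.p14):
ACTA1: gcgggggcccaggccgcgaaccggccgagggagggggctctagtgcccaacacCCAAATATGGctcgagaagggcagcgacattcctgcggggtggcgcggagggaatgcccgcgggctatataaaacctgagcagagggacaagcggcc
This motif lay within 250 bases before the start, on either strand, in the windows of ACTA1, ACTG2 and MYLK, the 3 with a promoter entry among ACTA1 and the 4 higher smooth muscle genes, and in 1.16% of all 35116 windows. A match is a description of the letters and not of binding.

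Thick filament genes held no call against day 7 NKX2-5+ and 7 against NKX2-5-. Of 17 genes in the table, 10 were assessed, with a median ratio of -0.54 (0.07 with FPKM as deposited), and the 7 calls over day 7 NKX2-5- were all higher, with a median of 2.51. The atrial light chain MYL7 had the highest level of the genes kept in the day 14 library, at 2925 scaled FPKM against 1472 on day 7, and the fetal light chain MYL4 was at 767 against 1701. MYL3, the ventricular essential light chain, was at 211 against 382, and titin (TTN), the molecular spring of the sarcomere, at 110 against 227. The slow myosin MYH7, at 48.0 against 21.1, was 1 of 3 assessed members above its day 7 level. None of the 10 assessed thick filament genes thus passed the size rule between the pair.

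Thin filament and Z-disc genes held calls in both directions against day 7 NKX2-5+ and in the higher direction alone against NKX2-5-. Of 20 thin filament genes assessed, ACTA1 was higher and NEBL, which encodes nebulette of the Z-disc, was lower, with a median of -0.58 (0.14 with FPKM as deposited), while over day 7 NKX2-5- 4 of 18 were higher (median 1.16). NEBL stood at 95.1 scaled FPKM on day 7 and 18.1 on day 14 (5.25-fold lower), with 32.8 in day 7 NKX2-5-. TNNC1 (565 and 594) and TPM1 (2168 and 2918) were within 2-fold. Of 26 Z-disc and costamere genes assessed, PDLIM3 (6.50 and 50.2) and ANKRD1 (31.2 and 174) were higher and the sarcoglycan gene SGCA (8.79 and 1.22) was lower, with a median of -0.40 (0.16 with FPKM as deposited), while over day 7 NKX2-5- 8 of 25 were higher (median 0.44). PDLIM3 encodes an actinin-binding protein and ANKRD1 a stretch-induced nuclear and sarcomeric protein.

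Genes of calcium handling and excitation stood lower on day 14 against day 7 NKX2-5+ and not against day 7 NKX2-5-. Of 14 calcium handling genes assessed, 12 had a ratio below 0 and 2 passed the size rule, both lower, with a median of -1.03 (-1.04 when centred by length) against 0.07 for all genes and 0.92 over day 7 NKX2-5-. RYR2, the ryanodine receptor that releases calcium from the sarcoplasmic reticulum, was at 41.2 scaled FPKM on day 7 and 7.50 on day 14 (5.49-fold lower), with 2.40 in day 7 NKX2-5-. The channel subunit gene CACNA2D2 was at 7.40 and 1.04. Centred by length, RYR2 (-1.96) and CACNA2D2 (-1.90) fell short of the size rule. The calcium pump gene ATP2A2 (165 and 74.1), its inhibitor phospholamban (PLN, 85.5 and 44.6) and the sodium-calcium exchanger SLC8A1 (108 and 30.9) were also below their day 7 levels without passing.

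Of 9 channel genes assessed, 2 were lower and none higher, with a median of -1.01, and over day 7 NKX2-5- none of 6 passed (median 0.36). KCNIP2, a subunit of the transient outward potassium channel, was at 30.2 scaled FPKM on day 7 and 3.25 on day 14 (9.29-fold lower), and at 0.922 in day 7 NKX2-5-. The day 7 NKX2-5+ library was the high one for KCNIP2, and the other 3 fractions were low. The pacemaker channel gene HCN4, at 57.3 and 18.5, and the potassium channel gene KCNH2, at 44.0 and 15.7, did not pass.

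Heart transcription factors split. Of 29 assessed, 5 were lower and 1 higher on day 14, with a median of -0.76 (-0.13 with FPKM as deposited), against 5 higher and 4 lower over day 7 NKX2-5-. TBX20, a T-box factor of the early myocardium, stood at 206 scaled FPKM on day 7 and 10.5 on day 14 (19.6-fold lower), with 41.9 in day 7 NKX2-5- and 9.73 in day 14 aMHC-. Both day 14 fractions lay below both day 7 fractions. IRX4, which marks ventricular muscle, stood at 22.1 and 0.453, with 0.202 in day 7 NKX2-5-, so that the day 7 NKX2-5+ library alone was high. HAND1, of the left ventricle and outer curvature, was at 33.7 and 3.38 (9.96-fold lower), with 32.2 in day 7 NKX2-5-. TBX5, of the atria and left ventricle, was at 67.9 and 8.79 (7.72-fold lower).

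ISL1, a factor of the second heart field and sinus node, was the only assessed heart factor past the size rule in the higher direction, at 2.46 scaled FPKM on day 7 and 16.5 on day 14 (6.72-fold), with 2.23 in day 7 NKX2-5- and 16.5 in day 14 aMHC-. Levels within 2-fold were read for GATA4 (74.6 and 45.1), GATA6 (14.9 and 21.4), MEF2C (14.0 and 8.64) and SRF (16.0 and 17.3). The homeobox genes HOXB2 (1.03 and 16.9), HOXB3 (0.434 and 13.7) and HOXB5 (0.337 and 5.57) were called higher, and HOXB4 stood at 12.4 on day 14 and was listed at 0 on day 7. In the shallow library all 4 rest on few reads. In day 7 NKX2-5- HOXB2 was at 2.73, HOXB3 at 3.33, HOXB4 at 0.385 and HOXB5 at 1.11, and against that library HOXB2 and HOXB4 passed.

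**Figure D3:**
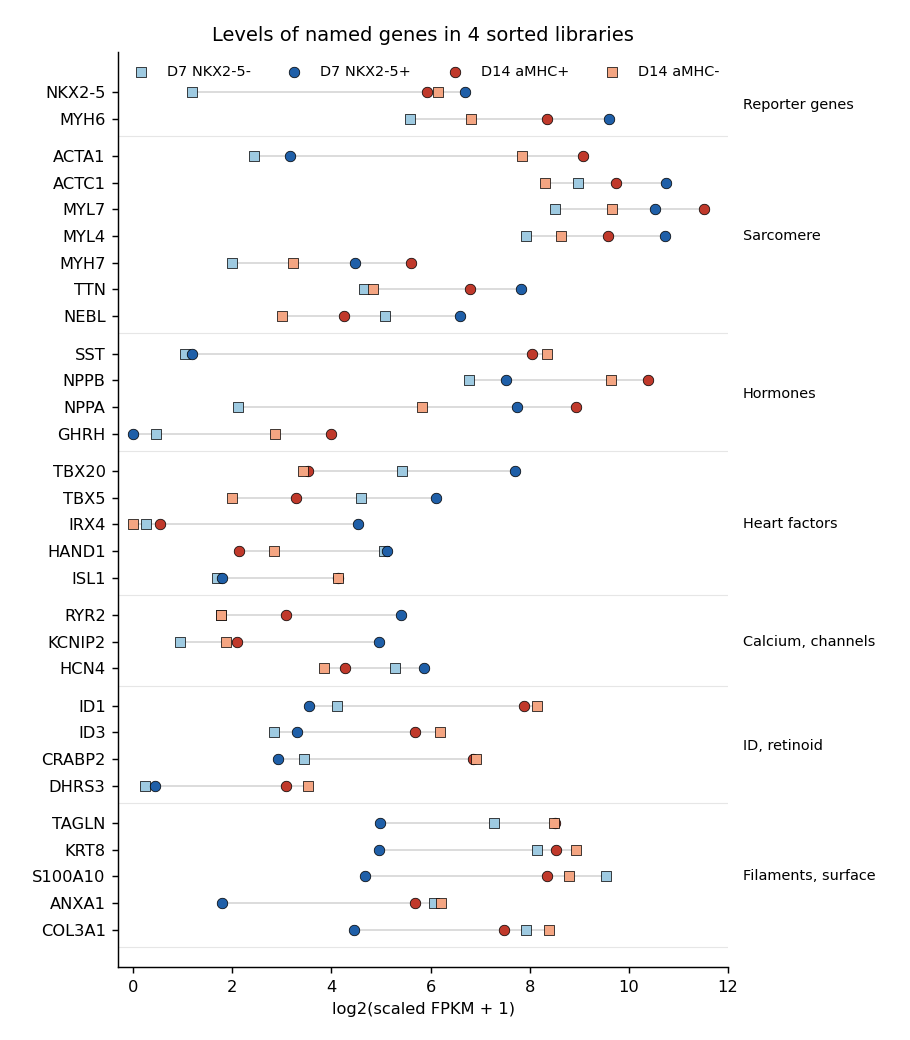
Levels of named genes as log2(scaled FPKM + 1) on the x axis, with 1 symbol per library (blue for day 7, red for day 14; filled circles for the pair compared, squares for the other fraction of each day). ACTA1, SST, ID1 and CRABP2 separate both day 14 libraries from both day 7 libraries, whereas for KRT8, S100A10, ANXA1 and COL3A1 the day 7 NKX2-5+ library alone is low.

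Hormone transcripts were among those with the highest ratios. NPPB, the B-type natriuretic peptide, was at 182 scaled FPKM on day 7 and 1341 on day 14 (7.37-fold), with 109 in day 7 NKX2-5- and 802 in day 14 aMHC-. The atrial peptide NPPA was at 213 and 487, with 3.31 in day 7 NKX2-5- and 56.1 in day 14 aMHC-, and CORIN, the protease that processes it, was lower at 24.3 and 5.77; neither passed. SST, the somatostatin precursor, had the highest ratio of all named genes (6.87), at 1.27 on day 7 and 264 on day 14 (208-fold), with 1.06 in day 7 NKX2-5- and 323 in day 14 aMHC-. GHRH, growth hormone releasing hormone, was listed at 0 in day 7 NKX2-5+ and had levels of 0.38 in NKX2-5-, 14.8 in aMHC+ and 6.24 in aMHC- cells. SST and GHRH were thus near the floor in both day 7 fractions and present in both day 14 fractions. The stretch before SST is shown for its cyclic AMP response element (TGACGTCA, in capitals; chr3:187670395-187670544, minus strand; RefSeq, GRCh38.p14), which 1.65% of all windows hold:
SST: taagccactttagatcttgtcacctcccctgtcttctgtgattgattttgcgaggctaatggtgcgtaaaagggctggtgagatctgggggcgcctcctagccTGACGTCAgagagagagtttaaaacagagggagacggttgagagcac

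Genes of BMP and retinoid signalling were called mostly in the higher direction, as 63.9% of all calls were. Of 16 BMP and TGF-beta pathway genes assessed, ID1, ID3 and CTGF were higher and BMP5 lower, with a median of 0.51. This median was 1.06 with FPKM as deposited, 0.20 with equal sums and 0.07 with scaling over genes above 20 FPKM. CTGF is also in the immediate early list. The target gene ID1, an inhibitor of differentiation factors, was at 10.8 scaled FPKM on day 7 and 235 on day 14 (21.8-fold), with 16.4 in day 7 NKX2-5- and 282 in day 14 aMHC-. ID3 was at 8.83 and 50.1, and the ligands BMP4 (8.86 and 22.2) and BMP5 (57.2 and 9.09) lay on opposite sides. ID1 and ID3 also passed against day 7 NKX2-5-, whereas CTGF (21.2 and 101) was at 135 there. Of 6 retinoic acid genes assessed, the binding protein genes CRABP2 (6.63 and 115, 17.3-fold) and CRABP1 (0.445 and 8.41) and the retinal reductase DHRS3 (0.352 and 7.51) were higher, with a list median of 2.19. Against day 7 NKX2-5- CRABP2 and DHRS3 passed and CRABP1, at 8.16 there, did not.

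Of 7 WNT pathway genes assessed, the secreted antagonist FRZB (1.09 and 23.8) was higher and the agonist RSPO3 (5.19 and 0.0888) lower. In this list 5 of 7 lay below 0, with a median of -0.99 (-0.13 with FPKM as deposited). Over day 7 NKX2-5- 3 of 9 were lower and none higher (median -0.26). HES4 (1.77 and 10.5) was the 1 call among 6 NOTCH pathway genes assessed. All 6 lay above 0 (median 1.08), while over day 7 NKX2-5- the median was -0.60 with no call. In day 7 NKX2-5- FRZB was at 13.5 and HES4 at 10.4 scaled FPKM, close to their day 14 levels.

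Many cell cycle genes were lower on day 14, with similar counts against either day 7 library. Of 33 assessed out of 46 in the table, 11 were at least 4-fold lower and 1 higher, with 27 of 33 below 0 and a median of -1.23 (-0.57 with FPKM as deposited, -1.55 when centred by length) against 0.07 for all genes. Over day 7 NKX2-5- the counts were 12 lower and 1 higher of 38, with a median of -1.32. TOP2A, which untangles replicated DNA, stood at 14.2 scaled FPKM on day 7 and 1.49 on day 14 (9.55-fold lower), with 14.8 in day 7 NKX2-5- and 2.33 in day 14 aMHC-. CENPF of the kinetochore was at 12.2 and 0.831, the mitotic kinesin KIF20A at 9.14 and 0.608, and UBE2C, which helps the anaphase complex degrade cyclins, at 34.9 and 4.41. Day 14 aMHC- was above aMHC+ for each of these 4 genes. Of the genes of the replication fork, PCNA (19.6 and 11.0), MCM3 (15.4 and 10.4) and MCM4 (12.0 and 3.01) were below their day 7 levels without passing.

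CDKN1A, which encodes the cyclin-dependent kinase inhibitor p21, was the only cell cycle gene assessed that passed in the higher direction. It stood at 16.6 scaled FPKM on day 7 and 147 on day 14 (8.88-fold), with 21.1 in day 7 NKX2-5- and 176 in day 14 aMHC-. The cell cycle homology region (CHR), with the letters TTTGAA on either strand, lay within 250 bases before the start in 5 of the 9 genes with a promoter entry among the 11 lower ones (CCNB2, CDC20, MKI67, PLK1 and TOP2A), and in 13.3% of all windows. A pair is shown, CCNB2 (chr15:59104996-59105145, plus strand) and PLK1 (chr16:23678739-23678888, plus strand), from RefSeq, GRCh38.p14, with the CHR in capitals:
CCNB2: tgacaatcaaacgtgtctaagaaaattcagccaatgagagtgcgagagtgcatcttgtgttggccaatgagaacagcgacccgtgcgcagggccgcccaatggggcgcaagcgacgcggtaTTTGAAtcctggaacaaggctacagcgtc
PLK1: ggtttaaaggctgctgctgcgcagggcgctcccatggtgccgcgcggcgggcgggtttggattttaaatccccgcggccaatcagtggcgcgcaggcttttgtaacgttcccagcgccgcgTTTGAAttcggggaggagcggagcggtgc
CCNB2 was at 8.88 scaled FPKM on day 7 and 1.17 on day 14, and the mitotic kinase PLK1 at 13.1 and 1.85.

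Fuel genes divided by pathway. Of 25 glycolysis and glucose uptake genes assessed, 6 were higher and none lower, with a median of 1.05 (0.78 when centred by length) and 8 higher over day 7 NKX2-5- (median 1.51). SLC16A3, the lactate exporter, was at 1.03 scaled FPKM on day 7 and 28.2 on day 14, with 3.74 in day 7 NKX2-5-. LDHA, the muscle-type lactate dehydrogenase, was at 20.4 and 150 (7.33-fold), with 31.6 in day 7 NKX2-5- and 191 in day 14 aMHC-. The isozymes ALDOC (1.79 and 15.9) and ENO2 (2.34 and 16.7), the transporter SLC2A3 (28.96 and 143) and ENO1 (44.7 and 198) were the other calls. Centred by length, ENO1 (1.95) fell short of the size rule. The muscle isozymes PGAM2 (25.2 and 16.3) and ENO3 (60.6 and 72.4) and GAPDH (2140 and 2034) were within 2-fold.

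Of 10 hypoxia response genes assessed, BNIP3 (3.18 and 23.1), P4HA1 (3.77 and 18.6) and P4HA2 (1.75 and 13.2) were higher and none lower, with a median of 1.76 and of 1.34 over day 7 NKX2-5-. BNIP3 acts in mitophagy, and the P4HA enzymes hydroxylate collagen. VEGFA was at 12.8 and 17.8 and did not pass, and the list shares HK2, PDK1 and SLC2A1 with glycolysis. The core of the hypoxia response element, ACGTG on either strand, lay in 6 of the 13 windows of the 8 genes with a promoter entry among the 9 higher genes of both lists, 1 window in each of 6 genes. It lay in 18.5% of all windows and for 21.7% of all genes with an entry; it is also part of the E-box CACGTG. The first match before LDHA is followed by a G, so it reads CACGTG, that E-box, and holds ACGTG on both strands. LDHA is shown (chr11:18394413-18394562, plus strand, RefSeq, GRCh38.p14), with CACGT, the reverse-strand form of ACGTG, in capitals:
LDHA: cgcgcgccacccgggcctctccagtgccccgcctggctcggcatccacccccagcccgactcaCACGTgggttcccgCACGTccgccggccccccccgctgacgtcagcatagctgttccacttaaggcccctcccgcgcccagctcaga

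No fatty acid oxidation gene passed in either direction among 20 assessed, and 18 of 20 had a ratio below 0 (median -0.60, or -0.02 with FPKM as deposited). Over day 7 NKX2-5- the list lay on the other side, with none of 15 past the size rule, 13 of 15 above 0 and a median of 0.41. CPT1B, which admits fatty acids to the mitochondrion of muscle, was at 10.0 scaled FPKM on day 7 and 2.37 on day 14, and the coactivator PPARGC1A at 13.7 and 4.90. Respiratory chain genes had a median of 0.07 over 40 assessed with no call (0.68 with FPKM as deposited, -0.27 with equal sums and -0.34 with scaling over genes above 20 FPKM), against 1.15 over day 7 NKX2-5-. Centred by length these medians were -0.11 and 0.83, and 3 of the 40 genes were called higher over day 7 NKX2-5-. Of 11 energy transfer genes assessed, 1 was called, with a median of -0.13 (0.48 with FPKM as deposited, -0.90 when centred by length). It was COX7A1, the heart isoform of a cytochrome oxidase subunit, lower at 10.6 and 1.67. Muscle creatine kinase (CKM) was at 110 and 28.4, COX6A2 at 39.4 and 38.2 and AK4 at 1.80 and 9.71. Of 7 small heat shock genes assessed, HSPB2 was the 1 call, lower at 33.0 and 3.59, with 3.25 in day 7 NKX2-5-. HSPB1 was at 229 and 592 and did not pass.

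**Figure D4:**
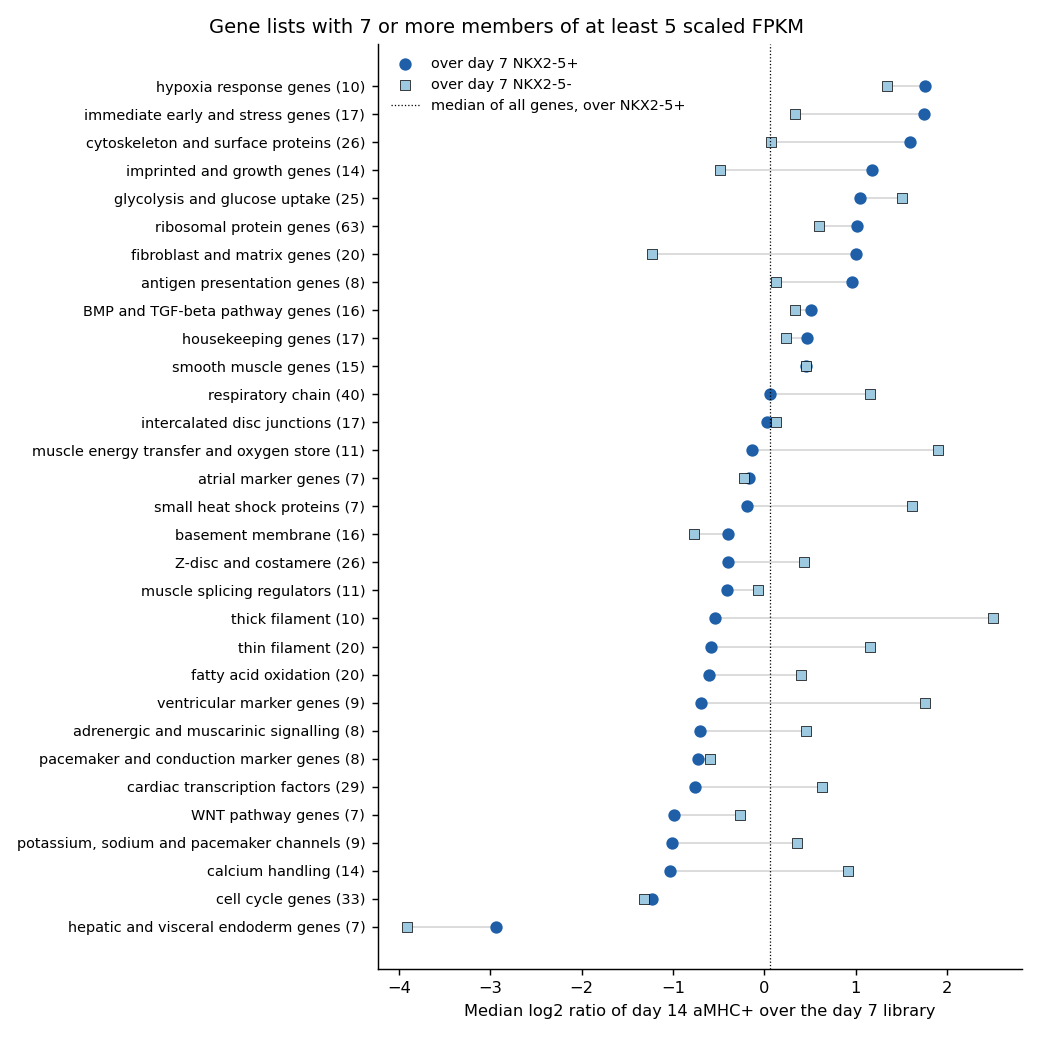
Median log2 ratio (x axis) of each gene list with 7 or more assessed members (number in brackets), as circles over day 7 NKX2-5+ and as squares over day 7 NKX2-5-. The squares of sarcomere, calcium and energy lists lie to the right of their circles, those of matrix, imprinted and cytoskeletal lists to the left, and those of cell cycle and smooth muscle genes stay close to the circles.

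Smooth muscle genes held 4 calls, all higher, among 15 assessed, with a median of 0.46 over either day 7 library. TAGLN, an actin-bundling protein of smooth muscle and fetal heart, was at 30.7 scaled FPKM on day 7 and 364 on day 14 (11.8-fold), with 155 in day 7 NKX2-5- and 361 in day 14 aMHC-. MYLK, the light chain kinase, was at 0.965 and 12.2 and the smooth muscle myosin MYH11 at 0.987 and 11.6, and both also passed over day 7 NKX2-5-. ACTG2 was at 0.223 and 8.72, with 6.37 in day 7 NKX2-5-. CNN1, at 26.9 and 85.7, did not pass. The summed level of the list was 3654 on day 7 and 4673 on day 14. TPM1, which is also in the thin filament list, made up 2168 and 2918 of these sums. ACTA2, at 663 and 331, was among the 2 assessed members with a ratio below 0. In bulk RNA, more cells of a type and more RNA per cell cannot be told apart.

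Matrix genes read differently against the day 7 libraries. Of 20 fibroblast and matrix genes assessed, COL3A1, POSTN, FBLN1 and MFAP4 were higher and none lower (median 1.01), but over day 7 NKX2-5- 1 was higher and 7 lower of 29 (median -1.22). COL3A1, a fibrillar collagen, was at 21.0 scaled FPKM on day 7 and 179 on day 14, with 242 in day 7 NKX2-5-. POSTN, periostin, was at 0.465 and 16.0, with 3.02 in day 7 NKX2-5-, and was the 1 member past the rule over both. The summed level of this list was 594 in day 7 NKX2-5+, 1450 in day 14 aMHC+, 2776 in day 7 NKX2-5- and 2228 in day 14 aMHC-. Of the 20 assessed members, 16 had a ratio above 0 and 4 below it. LUM was at 4.83 and 5.23, and DCN, not assessed, at 1.31 and 1.86. COL1A1 (35.0 and 123), FN1 (87.6 and 320) and SPARC (47.2 and 123) were above their day 7 levels without passing.

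Basement membrane genes were called mostly lower against day 7 NKX2-5+, with NID2 (90.2 and 14.3), LAMA4 (23.5 and 2.03) and LAMA2 (8.12 and 1.26) lower and SMOC2 (0.216 and 5.79) higher among 16 assessed, and a median of -0.39 (-0.12 when centred by length, 0.17 with FPKM as deposited). Over day 7 NKX2-5- none of 14 passed, with a median of -0.77. LAMA4 and LAMA2, laminin chains of muscle and vessel, were at 1.28 and 1.17 in day 7 NKX2-5-. Only the day 7 NKX2-5+ library was high for them.

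Of 26 genes of the actin cytoskeleton and calcium-binding surface proteins, 7 were higher and LGALS3 (8.96 and 0.638) lower, with a median of 1.60 (1.13 when centred by length), while over day 7 NKX2-5- none was higher and 1 lower (median 0.07, or -0.31 when centred by length). The annexin ANXA1 was at 2.46 scaled FPKM on day 7 and 50.6 on day 14, with 66.2 in day 7 NKX2-5-. S100A10, the partner of annexin A2, was at 24.6 and 324, with 739 there, and the actin-sequestering thymosin TMSB4X at 38.0 and 268, with 249. The day 7 NKX2-5+ library was the low one for these genes and the other 3 fractions were high.

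The epicardial list held 16 genes, of which 4 were assessed and called higher: KRT8 (30.1 and 369), KRT18 (56.5 and 531), KRT19 (16.6 and 126) and LRRN4 (12.0 and 54.7). Keratins are filament proteins of simple epithelia and of early heart muscle. In day 7 NKX2-5- KRT8 was at 282 scaled FPKM and KRT18 at 470, and of the 4 only KRT19, at 28.8, passed over it. The defining epicardial factors stayed near the floor, with WT1 at 0.168 and 1.41, TCF21 at 0.549 and 0.814 and TBX18 at 1.10 and 0.208. Processed copies of KRT8 and KRT18 in the genome could have shared reads with them.

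Of 17 immediate early and stress genes assessed, 7 were higher and none lower over day 7 NKX2-5+ (median 1.75), and over day 7 NKX2-5- none of 19 passed (median 0.33). FOS was at 0.82 scaled FPKM on day 7 and 14.8 on day 14, with 4.66 in day 7 NKX2-5-, and JUND at 6.29 and 40.8, with 15.7 there. Among 14 imprinted and growth genes assessed, 2 were higher, IGF2 at 37.9 and 241 (685 in day 7 NKX2-5-) and IGFBP2 at 5.10 and 43.9 (21.8 there), and neither passed over NKX2-5-.

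Ribosomal protein genes, which are short, had a median of 1.02 over 63 assessed (0.59 when centred by length) with RPS28 (14.2 and 96.2) the 1 call, and 0.60 over day 7 NKX2-5- (0.0045 when centred by length). Housekeeping genes had a median of 0.47 with 1 call of 17, the transferrin receptor TFRC (1.84 and 11.0). They did not move together, with ACTB at 573 and 1932 and HPRT1 at 6.04 and 2.57.

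Most assessed genes of liver and visceral endoderm were lower on day 14. Of 23 genes, 7 were assessed, 5 of them lower and none higher, with a median of -2.94 (-3.79 when centred by length), and over day 7 NKX2-5- 13 of 14 assessed were lower (median -3.91). AFP, alpha-fetoprotein, was at 21.7 scaled FPKM on day 7 and 0.189 on day 14 (115-fold lower), with 118 in day 7 NKX2-5- and 0.0972 in day 14 aMHC-. APOA2 was at 56.3 on day 7 and listed at 0 on day 14, with 189 in day 7 NKX2-5-. RBP4, the plasma carrier of retinol, was at 11.2 and 0.0747. The summed level of the list was 629 in day 7 NKX2-5-, 249 in day 7 NKX2-5+, 39.9 in day 14 aMHC+ and 58.4 in day 14 aMHC-. APOE, which was assessed and not called, supplied 101, 120, 34.1 and 54.2 of these in the same order, and so most of the day 14 sums. Both day 7 fractions thus held more of these transcripts than either day 14 fraction, in cells all sorted within the CD13+/ROR2+ population.

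**Figure D5:**
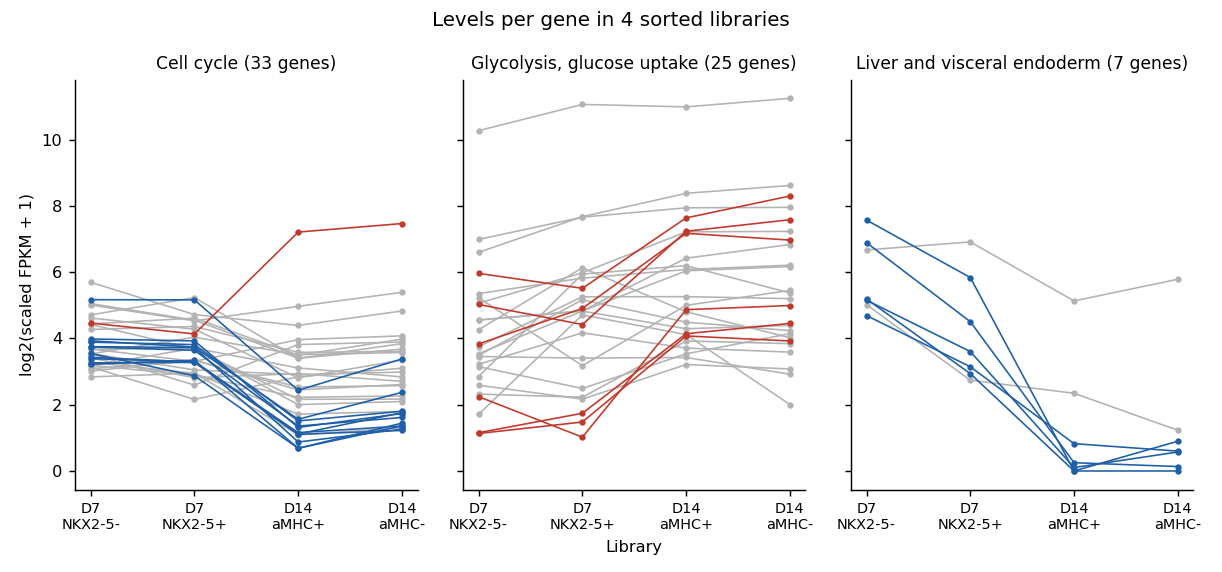
Levels of each assessed gene as log2(scaled FPKM + 1) (y axis) in the 4 sorted libraries (x axis) for the cell cycle, glycolysis, and liver and visceral endoderm lists. Blue lines are genes at least 4-fold lower and red lines genes at least 4-fold higher in day 14 aMHC+ than in day 7 NKX2-5+; the 11 blue cell cycle lines run level between the day 7 libraries and drop to day 14.

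Endothelial, blood and neural marker lists had few members at 5 scaled FPKM or more. Of 20 endothelial genes, 2 were assessed, and the VEGF receptor KDR was lower (8.28 and 1.05). The other, FLT1, was above its day 7 level without passing (1.74 and 7.66), with 11.0 in day 7 NKX2-5-. The summed level of the list was 27.1 scaled FPKM on day 7 and 14.9 on day 14, of which FLT1 supplied 1.74 and 7.66. PECAM1 was at 0.373 on day 7 and listed at 0 on day 14. Of 20 blood genes, 13 were listed at 0 in each library and 1 was assessed, LMO2 (4.0 and 25.1). HBD, a globin gene, was listed at 0 in both day 7 fractions and reached 18.1 in aMHC+ and 22.0 in aMHC- cells. Of 18 neural genes 2 were assessed, TUBB3, which was higher (0.816 and 23.6), and NES, which did not pass (33.97 and 46.1). Of 19 pluripotency genes 4 were assessed, 3 of them with a ratio below 0, with a median of -0.69 (0.37 with FPKM as deposited). LEFTY2 (0.447 and 10.6) was the 1 call, with 5.69 in day 7 NKX2-5-, and its paralog LEFTY1 could have shared its reads. LIN28A (8.11 and 2.87), SALL4 (5.53 and 1.37) and TERF1 (5.61 and 5.00) were below their day 7 levels without passing. The part of these cells in the differences was not tested.

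Some of the remaining extremes belong to no list. KCNG1, a modifier subunit of potassium channels, was at 0.588 scaled FPKM on day 7 and 35.3 on day 14, with 0.605 in day 7 NKX2-5- and 48.8 in day 14 aMHC-. GNG8, a G protein gamma subunit, was listed at 0 in both day 7 fractions and stood at 22.1 and 43.2 in the day 14 fractions. PLAT, tissue plasminogen activator, was at 0.547 and 28.2, with 9.20 in day 7 NKX2-5-. On the lower side, the chemokine CXCL14 was at 24.5 and 0.459 (53.3-fold lower) with 36.7 in day 7 NKX2-5-, and CRHBP, which binds corticotropin releasing hormone, at 30.9 and 1.76 with 19.99 there. KCNH7 (28.8 and 1.55), FITM1 (59.7 and 6.00) and SH3BGR (93.9 and 9.46) were high in day 7 NKX2-5+ and stood at 1.32, 3.42 and 20.3 in NKX2-5-.

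HNRNPC and CHCHD2, genes that most cells use, were at 31.4 and 27.7 scaled FPKM on day 7. HNRNPC was listed at 0 and CHCHD2 at 0.0793 in day 14 aMHC+. Both were listed at 0 in day 14 aMHC- too, with 32.6 and 32.8 in day 7 NKX2-5-. Such values can be failed estimates, here shared by both day 14 libraries, and the cause was not tested. RBM14-RBM4, a readthrough of adjacent genes, was at 0.00193 and 14.8 and shares its reads with both. Of the 172 higher genes, 12 were listed at 0 and 49 were under 1 scaled FPKM on day 7. Of the 97 lower genes, 7 were listed at 0 and 41 were under 1 scaled FPKM on day 14.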

How the data were processed

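Libraries came from an unstranded kit and were read as single reads of 50 bases, per the labels' protocols. The authors deposited 1 table of FPKM values by gene symbol, with 1 column per library. Cufflinks and the build hg19 are named per the submitters' processing notes; versions, aligner and annotation were not given in the sources used here. In the cell line label a number increases from sample to sample, and a single line was assumed.

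Of 23368 genes, 106 blank in all libraries and 1683 small RNA and histone symbols (MIR, SNOR, SCARNA, RNU, HIST) were left out. Scaling, ratios and calls were computed with python 3.11.15, numpy 2.4.6 and pandas 2.3.3, and the scripts were tested on simulated data. The pseudocount of 1 understates differences of low genes. With 1 library per group no test, error or p-value exists. Beyond the recorded minimum of reads per sample, depth is known only in relative terms, and it could not be placed for day 7 NKX2-5-. Folds against a library listed at 0 are not given. Transcript lengths are the longest coding transcripts of GENCODE release 29, matched by symbol for 91.3% of the assessed genes, and promoters are RefSeq windows of GRCh38.p14, a build other than that of the table. Reads of close paralogs or of genes overlapping on opposite strands cannot be told apart.

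Members, gene lists and named genes were chosen with earlier results of these data known. The rule named the sort genes and given markers, up to 4 called members of each list per direction (or the 2 largest ratios where fewer than 2 passed), the 15 highest and 15 lowest ratios and the 10 highest levels in each library. Other genes in the text were chosen after their values were seen, as further list members or marker checks; among them are the HOXB genes, the channel, pump and exchanger genes beside the calls, GATA4, GATA6, MEF2C, SRF, NPPA, PCNA, MCM3, MCM4, NES and the motif-bearing cell cycle genes. Alternatives were other pseudocounts, minimums and scalings, keeping small RNA genes, leaving out genes listed at 0, and centring by length. A few genes that the rule names are not reported here.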

Additional observations from a re-analysis of the deposited data

How the results depend on the processing

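The counts of 172 higher and 97 lower genes over day 7 NKX2-5+, and of 125 and 140 over day 7 NKX2-5-, depended on the settings. A pseudocount of 0.1 gave 147 lower genes over day 7 NKX2-5+. A pseudocount of 5 gave 53 and 23, and 41 and 38 over NKX2-5-. A minimum of 20 FPKM gave 85 and 31, and 66 and 51. FPKM as deposited gave 370 and 36 over day 7 NKX2-5+, equal sums gave 119 and 151, and scaling over genes above 20 FPKM gave 107 and 164, and 80 and 217 over NKX2-5-. Centring by transcript length, chosen after seeing the data, gave 119 and 105, and 89 and 140. The other 24 counts stayed within 1.5 times, among them the 119 higher genes with equal sums and the 4 counts centred by length. The 95 named genes past the size rule kept their direction in all 943 results, which the settings could hardly have changed. A pseudocount or a minimum cannot turn the sign of a ratio, and these ratios were at least 2 in size. The scalings moved the median of all genes by at most 0.66, and centring by length takes off at most 0.85. Of 42 not past it, 4 changed sign in 1 setting each, among them TNNT2, GAPDH and ROR2 with FPKM as deposited. Of all 1362 results for named genes, 1208 kept their side of the size rule, 123 lost it and 31 gained it. Of 24 list medians under 1 in size, 14 changed sign in at least 1 setting. Of 19 that were larger, 1 did, that of the channel genes, at 0.000931 with no minimum FPKM. In that setting the median ran over all 36 channel genes in the table and not over the 9 assessed. No paired analysis was possible because each group has 1 library and the labels give no replicate numbers, and no library could be left out for the same reason. Depth limits most the genes under 1 scaled FPKM in day 7 NKX2-5+.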

Other observations

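A few transcripts of unexpected tissues stood above 5 scaled FPKM in the day 14 libraries, named after their values were seen. CPS1, a urea cycle enzyme, was at 4.86 in day 7 NKX2-5-, 4.16 in day 7 NKX2-5+, 24.7 in day 14 aMHC+ and 35.1 in day 14 aMHC-. CNTN5, a neural adhesion protein, was at 0.580, 0.211, 9.20 and 10.5 in the same order. PHLDA3 (1.53, 2.02, 13.0 and 13.0) and DDIT4 (3.98, 3.10, 26.6 and 30.6), genes known from p53 and stress responses, stood higher on day 14 beside CDKN1A. All 4 passed the size rule over both day 7 libraries, which share the day 14 library as numerator. Lower on day 14 against both were the receptor gene FGFR2 (20.5, 20.6, 3.42 and 4.53), the matrix gene CTHRC1 (48.1, 10.4, 0.438 and 1.20) and the potassium channel gene KCNQ5 (5.28, 9.83, 0.307 and 0.333). VCAM1, an adhesion protein of early cardiomyocytes, was at 17.2 in day 7 NKX2-5+ and 2.38 in day 14 aMHC+, with 0.425 in day 7 NKX2-5-, and COL2A1 was at 201 and 41.5, with 42.4 there.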
